A study of Mus musculus with 15 samples.

Results

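Aqp1 encodes the water channel aquaporin-1, and it is described here as a single gene across the 5 groups of a mouse glioma experiment. The gene was found by its symbol, paired with the identifier ENSMUSG00000004655, and is 1 of 34259 genes in the count table and 1 of the 17497 genes with enough counts to be tested. It was chosen by its pattern in these same libraries, so its levels and fold differences are given as a description, with intervals and with no test.

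Aquaporins are membrane pores that let water follow an osmotic gradient. Aquaporin-1 is known from red blood cells, the proximal tubule of the kidney, the epithelium of the choroid plexus and many capillaries, and its expression has been described in gliomas. Cell volume regulation, acid handling by carbonic anhydrases, hypoxia, hypertonicity and glucocorticoids have all been studied beside this gene.

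The experiment used GL261, an established mouse glioma cell line with a wild-type genotype label, sequenced by RNA-seq on day 6 with 3 libraries in each group. The non-SP group was GL261 cells, called non-SP Luci+ in the design text, with no treatment. The other 4 groups were cells labelled Hoechst-CD133+ and all received a cytokine cocktail: with PBS, or seeded on ice for 20 min into one of 3 chiral hydrogels, namely D-gel@GSNP, L-gel@GSNP or D-gel@NP. The sources used here do not spell out non-SP, GSNP or NP or the cocktail's components, and fresh medium was given to every group on days 2 and 4. PBS and non-SP cells therefore differed in both cell population and cytokines, and these cannot be told apart. Nothing in the labels says that the 3 libraries of a group came from separate cultures, so the spread between them may be technical.

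Total counts ran from 16.6 M to 98.1 M a library. The extremes were D-gel@NP 1 and L-gel@GSNP 3, and all 15 libraries carry 1 batch label. Prom1, which encodes CD133, had 2 to 35 counts summed over the 3 libraries of any group, and it stayed at or below 0.307 CPM in every library, so its mRNA gave little sign of the CD133 label. Mitochondrially encoded genes took 2.86% of counts in non-SP and 3.00% in D-gel@GSNP libraries on average, against 5.97% with PBS, 4.50% with L-gel@GSNP and 4.63% with D-gel@NP. That share and Aqp1 were both lowest in the same 2 groups, and its part in the Aqp1 result was not tested.

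The start of the gene is shown first, because motifs of some of the regulators considered below were searched for here. No glucocorticoid response element was searched. The 250 bases before the Aqp1 start site, from RefSeq on build GRCm38.p6, lie at chr6:55336049-55336298 on the + strand. Capitals mark the matches to CCACCC, a longer form of the CACCC box that Klf factors bind, and to GGGCGG, the GC box bound by Sp1, on either strand.

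Aqp1 promoter: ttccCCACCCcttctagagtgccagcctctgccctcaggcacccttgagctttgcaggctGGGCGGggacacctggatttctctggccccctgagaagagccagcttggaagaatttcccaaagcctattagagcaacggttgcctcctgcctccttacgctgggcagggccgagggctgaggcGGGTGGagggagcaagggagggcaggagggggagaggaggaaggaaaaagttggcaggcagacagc

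CCACCC matched 2 times, once on each strand, starting at positions -246 and -66 counted from the start site. It was present in 28.1% of 32851 windows of the same length before other gene starts. GGGCGG matched 1 time at -190, and 32.7% of windows held it. No match was found to ACGTG, the core that HIF factors bind (16.6% of windows), GCGTG (28.2%), the AP-1 motif TGANTCA (6.75%), TGGAAA, a longer form of the NFAT core (18.6%), or TATAAA (12.4%). The shorter CACCC and GGAAA were not searched, although each can be read in the window outside the marked stretches. No searched motif contains another. The window was 62.0% G or C, against a median of 52.4% over all windows, and held 5 CpG against a median of 6. These matches describe letters only.

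The transcript measured is simple. Aqp1 has 1 transcript of 4 exons in GENCODE M21, 2627 bases long with a coding part of 807 bases, and the deposited FPKM values imply a length of 2627 bases as well. No other annotated gene overlaps it in that release.

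Aqp1 was low in the untreated non-SP cells and in cells from D-gel@GSNP, and high in cells from PBS, L-gel@GSNP and D-gel@NP. In non-SP libraries Aqp1 had 112, 120 and 147 counts, or 2.68, 3.07 and 3.56 CPM (counts scaled to library size and composition). In PBS libraries Aqp1 had 2996, 3188 and 3699 counts, or 77.7, 74.1 and 93.6 CPM. The PBS libraries all stood far above the non-SP libraries, and the lowest PBS library held 20.8 times the level of the highest non-SP library.

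In D-gel@GSNP libraries Aqp1 lay in or just below the non-SP range, with 149, 140 and 133 counts, or 3.47, 2.62 and 3.06 CPM. With L-gel in place of D-gel and the same GSNP label, L-gel@GSNP libraries had 2374, 3642 and 6228 counts of Aqp1, or 67.2, 82.1 and 61.7 CPM. With D-gel and the NP label, D-gel@NP libraries had 1381, 3740 and 4632 counts, or 82.3, 94.8 and 115.8 CPM. Neither of these gel groups overlapped D-gel@GSNP: the lowest L-gel@GSNP library was 17.8 times and the lowest D-gel@NP library 23.7 times the highest D-gel@GSNP library.

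**Figure D1:**
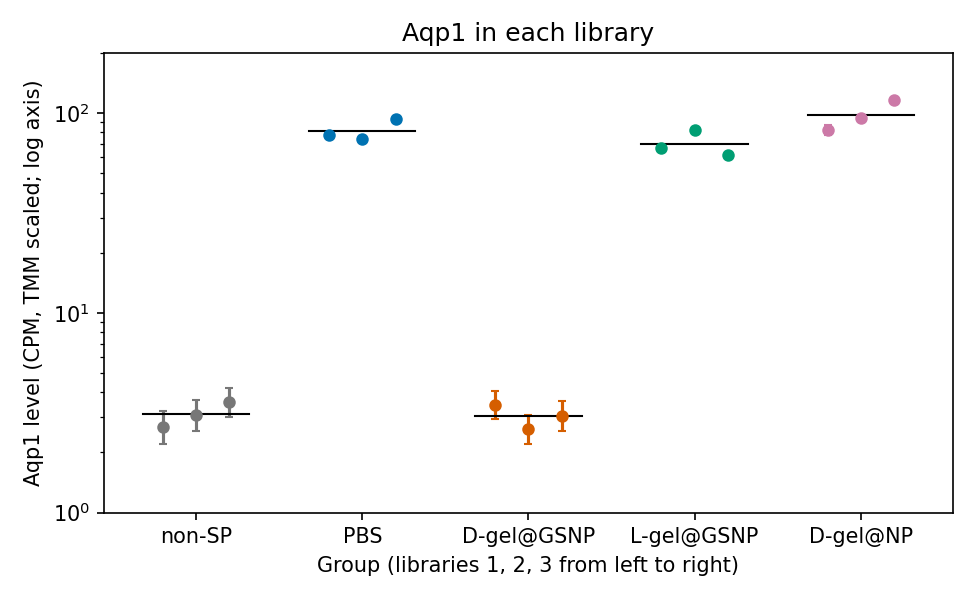
Aqp1 in each of the 15 libraries, in CPM on a log axis, with libraries 1 to 3 of each group from left to right. Points are libraries with 95% Poisson intervals for counting error, and horizontal lines are group means; the non-SP and D-gel@GSNP means, 3.11 and 3.05 CPM, lie far below the other 3, which run from 70.3 to 97.6 CPM.

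The mean Aqp1 levels, in order, were 97.6 ± 16.9 CPM in D-gel@NP, 81.8 ± 10.4 in PBS, 70.3 ± 10.5 in L-gel@GSNP, 3.11 ± 0.439 in non-SP and 3.05 ± 0.423 in D-gel@GSNP (SD, n = 3 each). The 3 high groups were close to one another beside the gap to the low groups. D-gel@NP overlapped PBS, and PBS overlapped L-gel@GSNP. The lowest D-gel@NP library, at 82.34 CPM, was just above the highest L-gel@GSNP library, at 82.07 CPM. On the deposited FPKM scale that order turned, with 31.62 in the D-gel@NP library and 31.75 in the L-gel@GSNP library, so whether the 2 groups overlapped turned on the scale. Non-SP and D-gel@GSNP overlapped.

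From the fit over all 15 libraries, Aqp1 was 26.3-fold higher in PBS than in non-SP cells, with a 95% interval of 21.2 to 32.6. D-gel@GSNP against PBS gave a 27.0-fold lower level, with an interval of 21.8 to 33.4. Aqp1 was 23.2-fold lower in D-gel@GSNP than in L-gel@GSNP (18.7 to 28.6) and 32.3-fold lower than in D-gel@NP (26.1 to 40.1). These 3 comparisons share the same D-gel@GSNP libraries, and the PBS libraries serve as the reference for all 3 gels and for the contrast with non-SP cells.

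The other differences in Aqp1 were small. D-gel@GSNP stood at 0.976 times non-SP, with an interval of 0.746 to 1.28, so a difference of up to about that size in either direction is not excluded by these libraries. D-gel@NP stood at 1.20 times PBS (1.02 to 1.41), L-gel@GSNP at 0.859 times PBS (0.73 to 1.01) and L-gel@GSNP at 0.716 times D-gel@NP (0.609 to 0.843). Leaving out 1 library moved the last of these, on the log2 scale, from -0.48 to between -0.61 without L-gel@GSNP 2 and -0.34 without D-gel@NP 3. Against non-SP cells, Aqp1 was 22.6-fold higher in L-gel@GSNP and 31.6-fold higher in D-gel@NP.

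The differences were as large without the libraries at the extremes of depth. L-gel@GSNP 3, the deepest, had the lowest Aqp1 of its group, and without it the log2 difference of D-gel@GSNP from L-gel@GSNP was -4.64 against -4.53 with it. D-gel@NP 1, the shallowest, had the lowest Aqp1 of its group, and without it the log2 difference of D-gel@GSNP from D-gel@NP was -5.13 against -5.02 with it.

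The level per gene length placed Aqp1 near the middle of detected genes in the low groups and near the top in the others. Aqp1 averaged 1.18 FPKM in non-SP and 1.12 FPKM in D-gel@GSNP, and its percentile among genes above 0 ran from 48.2 to 50.8 over those 6 libraries. It averaged 31.3 FPKM in PBS, 27.3 in L-gel@GSNP and 37.5 in D-gel@NP, with percentiles from 90.7 to 94.9 over those 9 libraries. By rank of mean FPKM over all genes in the table, Aqp1 moved from place 11074 in non-SP to 1796 in PBS, stood at 11082 in D-gel@GSNP, and reached 2002 in L-gel@GSNP and 1428 in D-gel@NP.

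Within the high groups, Aqp1 varied more between libraries than most genes of like level. Its coefficient of variation (CV) was 12.7% in PBS, 15% in L-gel@GSNP and 17.3% in D-gel@NP, where the median gene within a factor of 1.5 of its level had 4.99%, 5.23% and 4.56%. Those values put Aqp1 at the 97.3, 97.2 and 99.6 percentile of such genes. In the low groups the CV of Aqp1, 14.1% in non-SP and 13.9% in D-gel@GSNP, was close to the medians of 12.4% and 12.1%.

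**Figure D2:**
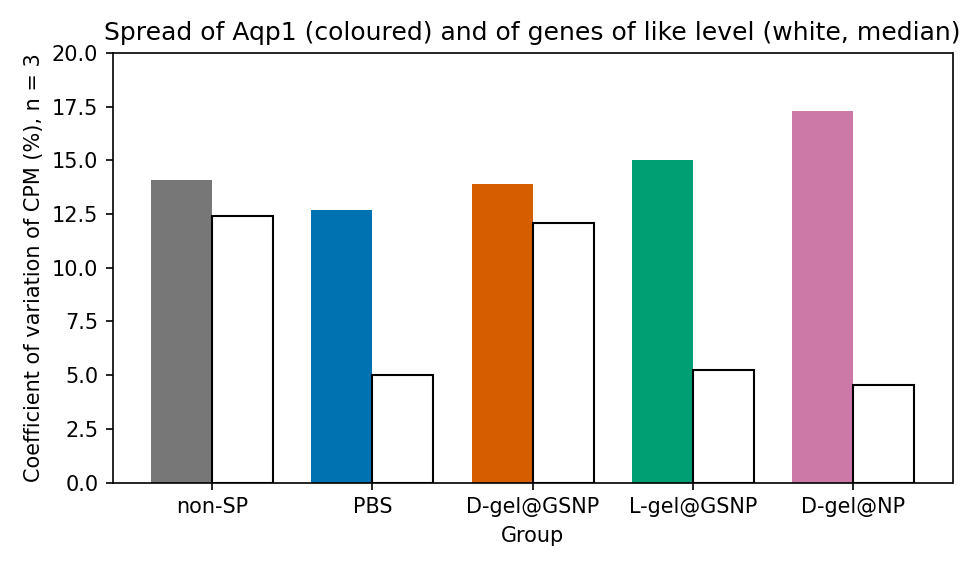
Coefficient of variation of Aqp1 CPM over the 3 libraries of each group (coloured bars, percent) beside the median over genes within a factor of 1.5 of its level (white bars). The bars differ most in D-gel@NP, 17.3% against 4.56%, and least in non-SP and D-gel@GSNP.

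Many genes differed between these groups, which sets the scale for Aqp1. A gene was called at an adjusted p under 0.05 in edgeR's quasi-likelihood test over all 17497 genes. In PBS against non-SP cells 27.6% of tested genes were higher and 26.1% lower, and Aqp1 had the 97th largest positive difference. In D-gel@GSNP against PBS 27.4% were higher and 27.5% lower, and Aqp1 had the 84th largest negative difference. Against L-gel@GSNP, D-gel@GSNP was higher for 30.5% and lower for 31.3%, with Aqp1 at the 149th largest negative difference, and against D-gel@NP it was higher for 28.8% and lower for 29.6%, with Aqp1 at the 105th. L-gel@GSNP against PBS gave 21.5% higher and 24.1% lower, and D-gel@NP against PBS 14.2% higher and 16.3% lower. By contrast, D-gel@GSNP and non-SP cells differed in 73 genes, or 0.417%, in either direction. The ranks of Aqp1 come from the contrasts that chose it.

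Aqp1 was by far the most abundant aquaporin per gene length in the high groups. It made up 91.2% ± 2.1 of the summed FPKM of the family's measured members in PBS, 90.8% ± 1.08 in L-gel@GSNP and 90.6% ± 0.749 in D-gel@NP, against 33.9% ± 1.64 in non-SP and 36.4% ± 4.08 in D-gel@GSNP (SD, n = 3 each). The family's sum was 3.45 FPKM in non-SP, 34.3 in PBS, 3.09 in D-gel@GSNP, 30 with L-gel@GSNP and 41.3 in D-gel@NP. Of 11 other listed aquaporins, 9 were in the table and 7 had enough counts to be tested. Aqp2 and Aqp4 were not analysed here, and Aqp6 and Aqp7 were too low.

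Aqp3, which also passes glycerol, was the 1 other aquaporin that rose in PBS cells, and it fell in D-gel@GSNP cells. Without PBS 3 the count of other aquaporins higher in PBS was 2, with Aqp9 added. Its level was 0.743, 0.307 and 0.339 CPM in the non-SP libraries, 1.56, 1.88 and 1.16 in PBS, 0.0233, 0.112 and 0.505 in D-gel@GSNP, 1.76, 1.44 and 1.42 with L-gel@GSNP, and 2.74, 1.72 and 2.90 in D-gel@NP. The 9 libraries of the high groups of Aqp1 were all above the other 6 for Aqp3 too. In edgeR's test Aqp3 was higher in PBS than in non-SP by 1.72 on the log2 scale (adjusted p = 0.0028), and D-gel@GSNP differed from PBS by -2.86 (adjusted p = 3.98e-05), from L-gel@GSNP by -2.85 (adjusted p = 2.89e-05) and from D-gel@NP by -3.52 (adjusted p = 2.15e-06). Its FPKM stayed between 0.114 and 1.36 as a group mean, far below that of Aqp1 in the high groups.

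**Figure D3:**
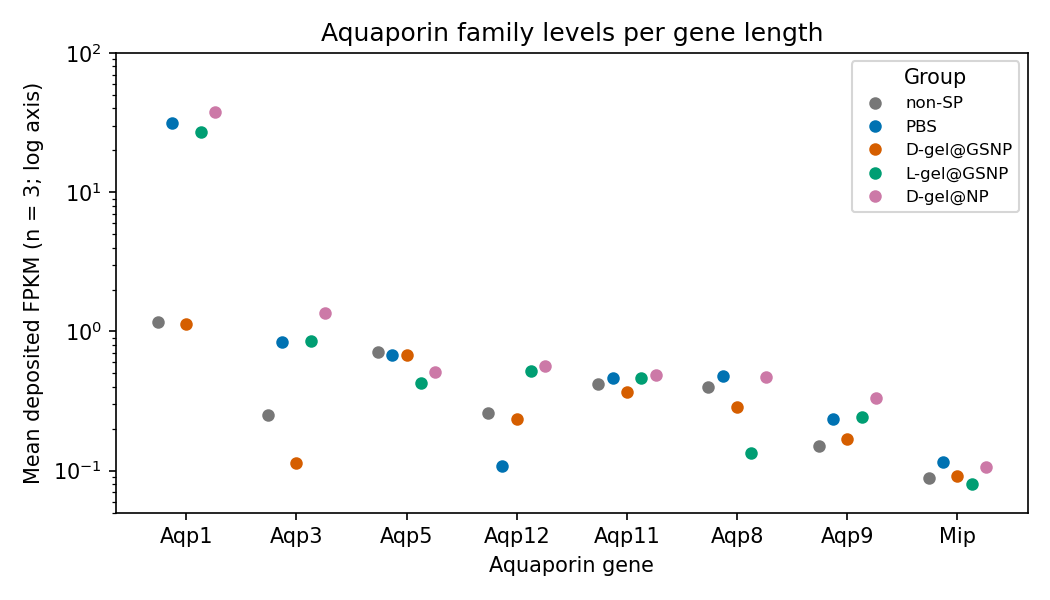
Mean deposited FPKM (log axis, n = 3 libraries a group) of Aqp1 and the 7 other tested aquaporins. Aqp1 stands above the others in PBS, L-gel@GSNP and D-gel@NP, and Aqp3 is lowest in non-SP and D-gel@GSNP.

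No other tested aquaporin passed in all 4 comparisons in which Aqp3 did. Aqp5, a channel of secretory glands, averaged 0.706 FPKM in non-SP, 0.675 in PBS, 0.678 in D-gel@GSNP, 0.429 with L-gel@GSNP and 0.512 in D-gel@NP. Its difference between D-gel@GSNP and L-gel@GSNP, 0.73 on the log2 scale (edgeR adjusted p = 0.0251), passed no longer when D-gel@GSNP 2, D-gel@GSNP 3, L-gel@GSNP 1 or L-gel@GSNP 3 was left out. Aqp8 was lower in L-gel@GSNP than in PBS by -1.84 (edgeR adjusted p = 0.00445), at 0.207 and 0.747 CPM. Aqp12 was higher than in PBS by 2.26 in L-gel@GSNP (adjusted p = 0.00206) and by 2.45 in D-gel@NP (adjusted p = 0.00231) in the same test. It was near the floor, at 0.117 CPM in PBS (14 counts summed), 0.556 with L-gel@GSNP and 0.608 in D-gel@NP. Aqp9, which passes glycerol and other small solutes, was lower in D-gel@GSNP than in D-gel@NP by -0.95 (edgeR adjusted p = 0.00795). Aqp12 was lower there by -1.27 (edgeR adjusted p = 0.0349), a call lost without any library of these groups except D-gel@NP 1. Aqp11, the most counted of the others at 3.60 to 4.57 CPM as group means, came nearest to the threshold in D-gel@GSNP against D-gel@NP (log2 difference -0.36, edgeR adjusted p = 0.0685), and Mip missed it in the 6 comparisons with adjusted p of 0.613 or more.

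The genes beside Aqp1 in the RefSeq order gave few values. Mindy4, a deubiquitinase family gene, averaged 2.57 ± 0.37 CPM in non-SP, 5.11 ± 0.219 in PBS, 2.67 ± 0.461 in D-gel@GSNP, 6.72 ± 0.319 with L-gel@GSNP and 4.51 ± 1.14 in D-gel@NP (SD, n = 3 each). It was 1.99-fold higher in PBS than in non-SP cells (edgeR adjusted p = 4.38e-05), a far smaller difference than that of Aqp1, and its fall in D-gel@GSNP against PBS was 1.91-fold. Inmt and Adcyap1r1 were too low to be tested. Gm38819, Ghrhr and 6430584L05Rik were not analysed here.

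Of 9 transcription factors described for Aqp1 or its promoter, 8 were tested. In PBS against non-SP cells 3 were higher (5 with upper-quartile factors) and 1 lower, beside 27.6% and 26.1% of all tested genes, and their median log2 difference was 0.28 against 0.02 over all genes. In D-gel@GSNP against L-gel@GSNP 5 were lower and 1, Hif1a, higher, beside 31.3% and 30.5% of all genes, with a median of -0.24 against -0.04 over all genes. The Hif1a call was lost without D-gel@GSNP 2, D-gel@GSNP 3, L-gel@GSNP 1 or L-gel@GSNP 2, and its direction turned with upper-quartile factors. Nr3c1, the glucocorticoid receptor, averaged 208 CPM in non-SP, 356 in PBS, 198 in D-gel@GSNP, 416 with L-gel@GSNP and 386 in D-gel@NP. It was higher in PBS than in non-SP by 0.77 on the log2 scale (edgeR adjusted p = 1.02e-11). Klf4, a factor that binds CACCC boxes, averaged 179.8, 269 and 196.8 CPM in non-SP, PBS and D-gel@GSNP, and 249 and 279 CPM in L-gel@GSNP and D-gel@NP. Its rise in PBS over non-SP was 0.58 on the log2 scale (edgeR adjusted p = 4.86e-08). These levels were lowest in the low groups of Aqp1, at differences far smaller than that of Aqp1.

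Sp1 and Hif1a did not order the groups as Aqp1 did. Sp1 was lower in PBS than in non-SP, at 168 and 197.7 CPM (log2 difference -0.24, edgeR adjusted p = 7.6e-05). Hif1a, the oxygen-regulated subunit of HIF, stood at 378 CPM in non-SP and 358 in PBS (log2 difference -0.08, edgeR adjusted p = 0.183). Nfat5, the factor of the hypertonic response, was highest in L-gel@GSNP and D-gel@NP, at 277 and 258 CPM, and was at 176.7 CPM in PBS, 143.5 in non-SP and 136.7 in D-gel@GSNP.

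Osmotic response genes rose in PBS over non-SP and most were lower in L-gel@GSNP than in PBS, where Aqp1 stood at 0.859 times PBS. All 8 tested of 10 listed genes were higher in PBS than in non-SP, beside 27.6% of all genes, with a median log2 difference of 0.79. In D-gel@GSNP against PBS 7 were lower, beside 27.5% of all genes, with a median of -0.71. In L-gel@GSNP against PBS 7 were lower and 1 higher, beside 24.1% and 21.5%, with a median of -0.57. In D-gel@GSNP against L-gel@GSNP 5 were lower and 2, Akr1b3 and Slc6a6, higher, beside 31.3% and 30.5%, with a median of -0.43. Over all genes the medians were 0.02, -0.02, 0.00 and -0.04. Slc38a2, an amino acid transporter induced by hypertonicity, averaged 1055 CPM in non-SP, 1936 in PBS, 1111 in D-gel@GSNP, 1629 with L-gel@GSNP and 1940 in D-gel@NP. Sgk1, a kinase that regulates ion transport, averaged 327 CPM in non-SP, 533 in PBS, 348 in D-gel@GSNP, 432.5 with L-gel@GSNP and 468 in D-gel@NP. Hspa4l, a chaperone, averaged 33.6, 83.5 and 32.4 CPM in non-SP, PBS and D-gel@GSNP, and 49.9 and 58.2 CPM in L-gel@GSNP and D-gel@NP. In PBS against non-SP their edgeR adjusted p was 2.79e-13 for Slc38a2, 4.17e-11 for Sgk1 and 7.3e-12 for Hspa4l.

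HIF target genes were mostly higher in L-gel@GSNP than in PBS, and a link between them and Aqp1 was not tested. In L-gel@GSNP against PBS, 15 of 18 tested targets were higher and 1 lower, beside 21.5% and 24.1% of all genes, with a median log2 difference of 0.77, while Aqp1 stood at -0.22. In PBS against non-SP 8 were higher and 4 lower, beside 27.6% and 26.1%, with a median of 0.29. In D-gel@GSNP against L-gel@GSNP 15 were lower and 2 higher, beside 31.3% and 30.5%, with a median of -0.97, and the 2 became 1 without D-gel@GSNP 1, L-gel@GSNP 1 or L-gel@GSNP 3. Over all genes the medians were 0.00, 0.02 and -0.04. Pgk1, a glycolytic enzyme, averaged 719.8 CPM in non-SP, 611 in PBS, 719.5 in D-gel@GSNP, 1195 with L-gel@GSNP and 605 in D-gel@NP, an order unlike that of Aqp1. Kdm3a, a histone demethylase, averaged 80.0, 165.5, 82.9, 222 and 175.0 CPM in the same order of groups, and Ddit4, an inhibitor of mTORC1, averaged 37.98, 93.1, 32.7, 159 and 164 CPM. Both were low in the low groups of Aqp1, and each rose in PBS over non-SP (edgeR adjusted p = 2.97e-13 for Kdm3a and 2.45e-10 for Ddit4).

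Glucocorticoid-induced genes were split. Of 10 tested genes, 6 were higher and 3 lower in PBS than in non-SP, beside 27.6% and 26.1% of all genes, with a median log2 difference of 0.53 against 0.02. In D-gel@GSNP against PBS 3 were higher and 6 lower, beside 27.4% and 27.5%, with a median of -0.52 against -0.02. Dusp1, a phosphatase of MAP kinases, averaged 14.8 CPM in non-SP, 65.6 in PBS, 17.8 in D-gel@GSNP, 70.3 with L-gel@GSNP and 62.5 in D-gel@NP, and its rise in PBS was 2.15 on the log2 scale (edgeR adjusted p = 2.18e-11). Fkbp5, a chaperone of the glucocorticoid receptor, went the other way, at 171, 73.3, 179, 48.2 and 57.6 CPM in the same order of groups, and it fell in PBS by 1.22 on the log2 scale (edgeR adjusted p = 2.13e-12).

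**Figure D4:**
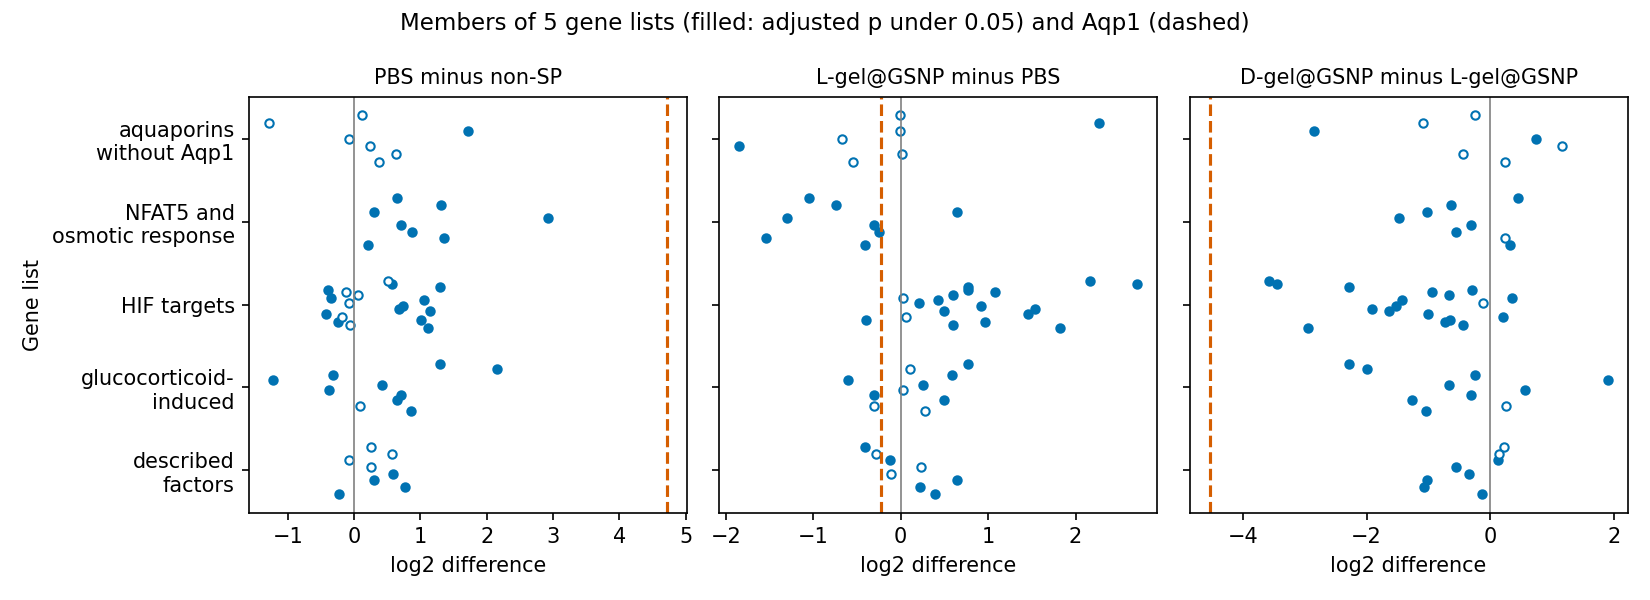
Log2 differences of the tested members of 5 gene lists in 3 comparisons, with filled points for edgeR adjusted p under 0.05 and a dashed line for Aqp1. Aqp1, at 4.72 and -4.53 in the outer panels, lies beyond every plotted member there. In the middle panel HIF targets lie mostly to the right of 0, and Aqp1 is at -0.22.

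Markers of other cell types that carry aquaporin-1 were checked in the same libraries. The 13 choroid plexus markers summed to 290.9 to 313.9 CPM over non-SP libraries, 577.1 to 612.6 over PBS, 281.5 to 312.3 over D-gel@GSNP, 319.3 to 404.5 over L-gel@GSNP and 582.4 to 637.1 over D-gel@NP. Nearly all of this was Enpp2, a secreted lipid enzyme that other cells also make, and Cldn2, a claudin. The defining marker Ttr was at 0 in non-SP and D-gel@GSNP and at most 0.0852 CPM as a mean elsewhere. The endothelial markers, 10 of 11 in the table, summed to 58.2 to 60.6 CPM over non-SP, 117.5 to 120.4 over PBS, 58.7 to 63.8 over D-gel@GSNP, 120.7 to 128.5 over L-gel@GSNP and 109.6 to 113.0 over D-gel@NP. Most of this was Esam, while Tek was at 0 in 3 groups and Emcn was at 0 in every group but PBS, where it averaged 0.0173 CPM. Vwf, a clotting factor of endothelium, averaged 1.29 CPM in non-SP, 15.8 in PBS, 1.23 in D-gel@GSNP, 5.88 with L-gel@GSNP and 9.99 in D-gel@NP. Of 5 tested endothelial markers, 2, Esam and Vwf, were higher in PBS than in non-SP and 0 lower, beside 27.6% and 26.1% of all genes. Pecam1 (0.757 and 1.01 CPM in non-SP and PBS), Kdr (0.141 and 0.424) and Plvap (0.508 and 0.457) did not pass.

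Erythroid markers, 7 of 9 in the table, summed to at most 1.01 CPM in any library. They averaged 0.927 CPM in non-SP, 0.573 in PBS, 0.953 in D-gel@GSNP, 0.815 with L-gel@GSNP and 0.4955 in D-gel@NP. Ependymal markers summed to at most 0.786 CPM in any library. The 12 macrophage and microglia markers summed to 21.1 to 22.3 CPM over non-SP, 89.9 to 101.4 over PBS, 22.2 to 23.1 over D-gel@GSNP, 58.0 to 62.1 over L-gel@GSNP and 55.9 to 65.3 over D-gel@NP. Of 9 tested, 6 were higher in PBS than in non-SP, beside 27.6% of all genes, among them Csf1r, a receptor of macrophages, at 24.6 against 2.46 CPM, Cd68 at 42.4 against 6.51, and Cd14 at 25.7 against 10.7, and Itgam and Ptprc rose 17.7-fold and 16.8-fold from under 0.1 CPM. Tyrobp was at 0 in non-SP, PBS and L-gel@GSNP. The 9 astrocyte markers summed to 421 to 425 CPM over non-SP, 664 to 684 over PBS, 440 to 456 over D-gel@GSNP, 717 to 789 over L-gel@GSNP and 711 to 787 over D-gel@NP. Of 8 tested, 5 were higher and 1 lower in PBS than in non-SP, beside 27.6% and 26.1% of all genes. Glul, a glutamine enzyme that led the sum, rose 1.46-fold. Slc1a2, a glutamate transporter, rose from 1.69 to 24.5 CPM and Apoe, a lipid carrier, from 27.1 to 139 CPM. The 1 lower was Gja1, at 110.1 CPM in non-SP and 93.7 in PBS (edgeR adjusted p = 0.0197). Other astrocyte markers were near 0 in non-SP and PBS, with Gfap at 0.105 and 0.28 CPM, S100b at 0.0481 and 0.175, and Slc1a3 at 0 and 0.00775. The mean choroid plexus, endothelial, macrophage, astrocyte and ependymal sums were lowest in the low groups of Aqp1, and their part in its levels was not tested. In such bulk RNA, fewer cells with Aqp1 and less Aqp1 per cell cannot be told apart.

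Aqp1 shared its pattern over the libraries with many genes. Among 2113 genes with a group mean of at least 5 CPM and at least a 2-fold range over the group means, 342 (16.2%) had a Pearson correlation of log2 CPM with Aqp1 of at least 0.95, 25 of at least 0.99, and 243 (11.5%) of -0.95 or below. The points are the 15 libraries, which fall into a low and a high cluster and share 5 treatments, so these values describe that split and carry no test. The 10 most like Aqp1 were Gbp3 (0.996), Pros1 (0.996), Cpe (0.995), Pdcd4 (0.995), Tppp3 (0.994), Ctsh (0.994), Serinc3 (0.994), Trp53inp1 (0.994), Ak1 (0.993) and Serinc1 (0.993). By Spearman rank 2 of these 10, Gbp3 and Pros1, kept a place among the first 10, and over the 5 group means 4 did.

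Likeness in shape was not likeness in size. Gbp3, an interferon-induced GTPase, averaged 427 CPM in non-SP, 996 in PBS, 409 in D-gel@GSNP, 979 with L-gel@GSNP and 1123 in D-gel@NP, a 2.33-fold rise in PBS over non-SP where Aqp1 had 26.3-fold. Tppp3, a tubulin polymerization-promoting protein, came closest of the 10 in size. It averaged 12.1 ± 0.189 CPM in non-SP, 295 ± 20.2 in PBS, 12.4 ± 0.82 in D-gel@GSNP, 265 ± 18.5 with L-gel@GSNP and 259 ± 17.2 in D-gel@NP (SD, n = 3 each). Unlike Aqp1, its mean was higher in PBS than in D-gel@NP.

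Of the genes with a correlation of at least 0.95, the 5 with the smallest root mean square distance from Aqp1 in centred log2 group means were Nhlrc1 (0.092), Tppp3 (0.219), Hbb-y (0.300), Frmpd4 (0.312) and Hist1h1d (0.413). Nhlrc1, which encodes the ubiquitin ligase malin, averaged 0.189 CPM in non-SP, 4.23 in PBS, 0.188 in D-gel@GSNP, 4.05 with L-gel@GSNP and 5.47 in D-gel@NP. It had the same order of groups in the high range as Aqp1 but far fewer counts, 23 summed for non-SP and 28 for D-gel@GSNP. Hbb-y, an embryonic globin gene, averaged 0.377 CPM in non-SP and 5.21 in PBS, although the other erythroid genes above were near 0. The 5 genes most opposed to Aqp1 were Dis3 (-0.993), Grk6 (-0.990), Kpnb1 (-0.990), Lmnb1 (-0.990) and Ptprb (-0.989). Lmnb1, which encodes lamin B1, averaged 416 CPM in non-SP, 143 in PBS, 443 in D-gel@GSNP, 139 with L-gel@GSNP and 140 in D-gel@NP.

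**Figure D5:**
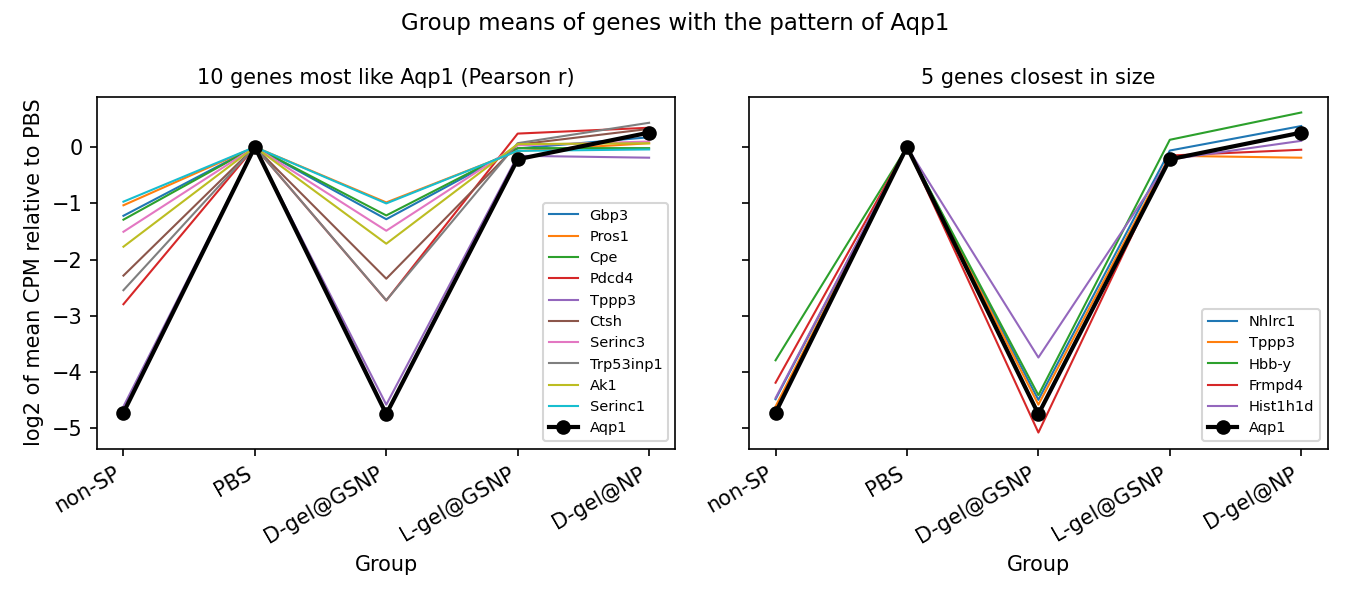
Log2 of the group mean CPM relative to PBS for Aqp1 (black) and, on the left, the 10 genes with the highest Pearson correlation, and on the right, the 5 closest in size. Lines join the groups of 1 gene; Tppp3 and Nhlrc1 run closest to Aqp1, while Gbp3 and most of the 10 dip far less in non-SP and D-gel@GSNP.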

How the data were processed

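RNA-seq gene counts and FPKM values of 15 libraries in 5 groups of 3 were used as deposited. Per the submitters' processing notes, fastp 0.22.0, HISAT2 2.1.0, featureCounts and DESeq2 were named with build GRCm39, and the annotation release is not given in the sources used here. The counts deposited by the authors are raw counts per gene. The FPKM deposited by the authors are scaled for gene length and library depth. Of counts from 1 to 20, 62.32% to 66.44% were even, so 2 reads of a pair may often be counted separately, and Poisson intervals, which cover counting error only, may be too narrow.

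Counts were fitted with edgeR 4.0.16 in R 4.3.3 (filterByExpr, TMM factors, quasi-likelihood test, Benjamini-Hochberg adjustment over 17497 genes, 15 libraries in 1 fit, common biological CV 8.06%). Alternatives were RLE and upper-quartile factors, other filters, DESeq2 1.42.0, limma 3.58.1 on log2(FPKM + 1), a replicate block, fits of 2 groups and leaving out each library. On simulated data for PBS against non-SP with 16931 genes, 79 of 100 genes changed 1.5-fold and 96 of 100 changed 2-fold were recovered, with 13 false calls. Only these genes were changed there, all upward in PBS. The simulation therefore does not show how the test fares where a large share of genes differ, as in these data. Likeness used log2 CPM with a prior count of 2.

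The gene, the lists and the tests were chosen with earlier results of these data known. Genes were named by rule: aquaporins with at least 10 counts in a library, 3 neighbours on each side, the 3 lowest adjusted p-values in PBS against non-SP and 2 highest levels of each list, leading markers, and the genes most like, most opposed and closest to Aqp1. Other genes named were chosen after their values were seen: Nfat5, Akr1b3, Slc6a6, Prom1, Ttr, Tek, Emcn, Pecam1, Kdr, Plvap, Tyrobp, Csf1r, Itgam, Ptprc, Slc1a2, Gja1, Gfap, S100b and Slc1a3. A sequence was read from the RefSeq promoter table, whose build differs from that of the counts, so the coordinates of the window hold for that build only. Neighbours and overlap were read from annotated gene positions, and neighbours were joined to the counts by symbol. The result for 1 gene that the naming rule gave is not reported here.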

Additional observations from a re-analysis of the deposited data

How the results depend on the processing

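Over 128 recomputed Aqp1 differences, 120 moved by less than the spread between libraries. The other 8 came from limma on log2(FPKM + 1), with or without a filter, where the log2 difference was 3.89 for PBS minus non-SP, -3.92 for D-gel@GSNP minus PBS, -3.73 for D-gel@GSNP minus L-gel@GSNP and -4.17 for D-gel@GSNP minus D-gel@NP. That pseudocount is close to the FPKM of Aqp1 in the low groups and shrinks the difference by construction. Leaving out 1 library gave 4.61 to 4.83, -4.85 to -4.64, -4.64 to -4.42 and -5.13 to -4.88 for the same 4 comparisons. Of the 10 genes most like Aqp1, 7 to 10 stayed among the first 10 without 1 library, against 2 by Spearman rank and 4 over group means. All 96 recomputed counts of called genes stayed within 1.5 times. Upper-quartile factors moved the median of all genes by -0.145 in D-gel@GSNP minus L-gel@GSNP and -0.121 in D-gel@GSNP minus D-gel@NP. With them the share of higher genes among those called was 38.1% instead of 49.4% and 38.6% instead of 49.3% there, 57.2% instead of 46.5% in D-gel@NP minus PBS, and 57.1% instead of 47.1% in L-gel@GSNP minus PBS. Hif1a reversed with them in D-gel@GSNP minus L-gel@GSNP, from 0.127 to -0.018. With the replicate block the Aqp1 difference was 4.72 for PBS minus non-SP and 9394 genes were called there, against 9388 without it. Same-numbered libraries showed no broad shared deviation, since none of 30 such pairs deviated together with a correlation over 0.1 (-0.036 to 0.045). A shared effect on few genes would not show in this. Depth limits the low groups, where Aqp1 had 112 to 149 counts a library.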

Other observations

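Ion and acid transport genes that act beside water channels gave mixed counts. Of 24 tested genes of cell volume and chloride transport, 10 were higher and 8 lower in PBS than in non-SP cells, beside 27.6% and 26.1% of all genes, with a median log2 difference of 0.00 against 0.02 over all genes, and 13 were higher and 6 lower in D-gel@GSNP than in L-gel@GSNP, beside 30.5% and 31.3%. Atp1b1, a subunit of the sodium pump, averaged 32.3 CPM in non-SP, 80.4 in PBS, 33.2 in D-gel@GSNP, 124 with L-gel@GSNP and 118 in D-gel@NP, and its rise in PBS over non-SP was 1.31 on the log2 scale (edgeR adjusted p = 2.98e-11). Wnk1, a kinase that senses chloride, averaged 984 CPM in non-SP, 550 in PBS, 1028 in D-gel@GSNP, 691 with L-gel@GSNP and 641 in D-gel@NP. It was highest in the low groups of Aqp1 (edgeR adjusted p = 3.48e-10 in PBS against non-SP). Its lowest mean was in PBS, while Aqp1 was highest in D-gel@NP.

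Of 18 listed carbonic anhydrases and acid transporters, 12 were tested. In PBS against non-SP cells 4 were higher and 2 lower, beside 27.6% and 26.1% of all genes, and the 4 became 2 without non-SP 3. Car2, a cytosolic carbonic anhydrase, averaged 29.8 CPM in non-SP, 58.3 in PBS, 31.6 in D-gel@GSNP, 101.2 with L-gel@GSNP and 100.9 in D-gel@NP. Its rise in PBS over non-SP was 0.97 on the log2 scale (edgeR adjusted p = 2.46e-10). Slc16a1 went the other way, at 239, 175.6, 247, 107 and 144 CPM in the same order of groups (edgeR adjusted p = 9.12e-08 in PBS against non-SP). Bsg averaged 429, 474, 435, 835 and 524 CPM, highest in L-gel@GSNP. Its log2 difference of PBS from non-SP was 0.15 (edgeR adjusted p = 0.0347), a call kept in 1 of 6 fits without 1 library.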
